A study of Mus musculus with 8 samples.

Results

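The interleukin-1 family is a group of related cytokines and receptors that barrier epithelia use to signal injury and inflammation. Il1a, Il1b, Il18 and Il33 encode ligands, and keratinocytes are a known source of the alpha form, of interleukin-18 and of interleukin-33. Il1r1 encodes the receptor that passes on the interleukin-1 signal, Il1r2 a decoy receptor that binds interleukin-1 without signaling, Il1rn the receptor antagonist, and Il1rl1 (ST2) the receptor for interleukin-33. Interleukin-1 beta and interleukin-18 are made as precursors that caspase-1 cleaves, a step that RNA does not show.

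These 8 genes were taken by symbol from the array annotation, through the RefSeq accession of each probe. They had 10 probes of 55681 on the array and are 8 of its 36799 genes and other targets, with 3 probes for Il1rl1 and 1 for each of the others. The brightest probe stood for a gene, and all 8 genes passed the filter on dim probes. RNA came from back skin epidermis of newborn (P0) C57BL/6 mice, 4 EED cKO and 4 control. In the EED cKO, K14-Cre removes floxed Eed, which encodes an essential subunit of the histone methyltransferase complex PRC2, in cells that express keratin 14 or descend from them, so cells of another origin in the epidermis keep the gene. The controls are labelled as control epidermis of the same strain and age without further genotype, and the labels call the samples biological replicates. Each sample was hybridized with the same Universal Mouse Reference RNA, a commercial mix of mouse RNA, in Cy3 on replicates 1 and 3 and in Cy5 on replicates 2 and 4 of both genotypes. Values are log2 ratios of epidermis over reference after normalization, given in the order of replicates 1 to 4, and a ratio is not compared between genes.

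Eed itself was lower on every EED cKO array (log2 ratio -1.66 to -2.04) than on any control array (-0.18 to -0.46), a fall of 1.46 on the log2 scale (SE 0.09, adjusted p = 2.12e-05). All 6 keratinocyte markers, Krt5, Krt14, Krt1, Krt10, Trp63 and Dsg3, were measured and none passed the test, with log2 fold changes of -0.21 to 0.14. The RNA is from bulk epidermis, in which a change in the number of cells of a type and a change in RNA per cell cannot be told apart. Between 51.5% and 65.5% of spots per array were well above background in the epidermis channel, and no spot was saturated. All arrays shared 1 slide, with each genotype in a row of its own, so slide row and genotype cannot be told apart. Control replicates 2 and 3 had Y-linked RNA that the 6 other arrays lacked (Eif2s3y log2 ratio 2.23 and 2.25 against -2.53 to -2.86).

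Of the 8 genes, 5 had more RNA in EED cKO than in control epidermis at an adjusted p below 0.05, namely Il18, Il1r2, Il33, Il1b and Il1a. Over all 23135 targets tested, 11.8% were higher by this rule. For 3 of the 5, Il18, Il1r2 and Il33, the rise was at least 2-fold, which held for 1.1% of all targets. With ratios of the signals that Agilent's Feature Extraction software processed there were also 3, but Il18, Il33 and Il1b, since Il1r2 no longer passed the test (log2 difference 0.25, adjusted p = 0.339) and Il1b exceeded 2-fold (1.77, adjusted p = 0.00617). No member fell, and 9.94% of all targets did, so that none among 8 genes is near that share. The same 5 had all EED cKO arrays above all control arrays, against 9.67% of all targets. None had all of them below, against 7.51%, which for 8 genes is near that share too. The median log2 fold change was 0.64 over the 8 genes and 0.02 over all targets. The 8 genes were chosen with earlier results of these data known. Their counts and median beside those of all targets are therefore a description and not a test.

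**Figure D1:**
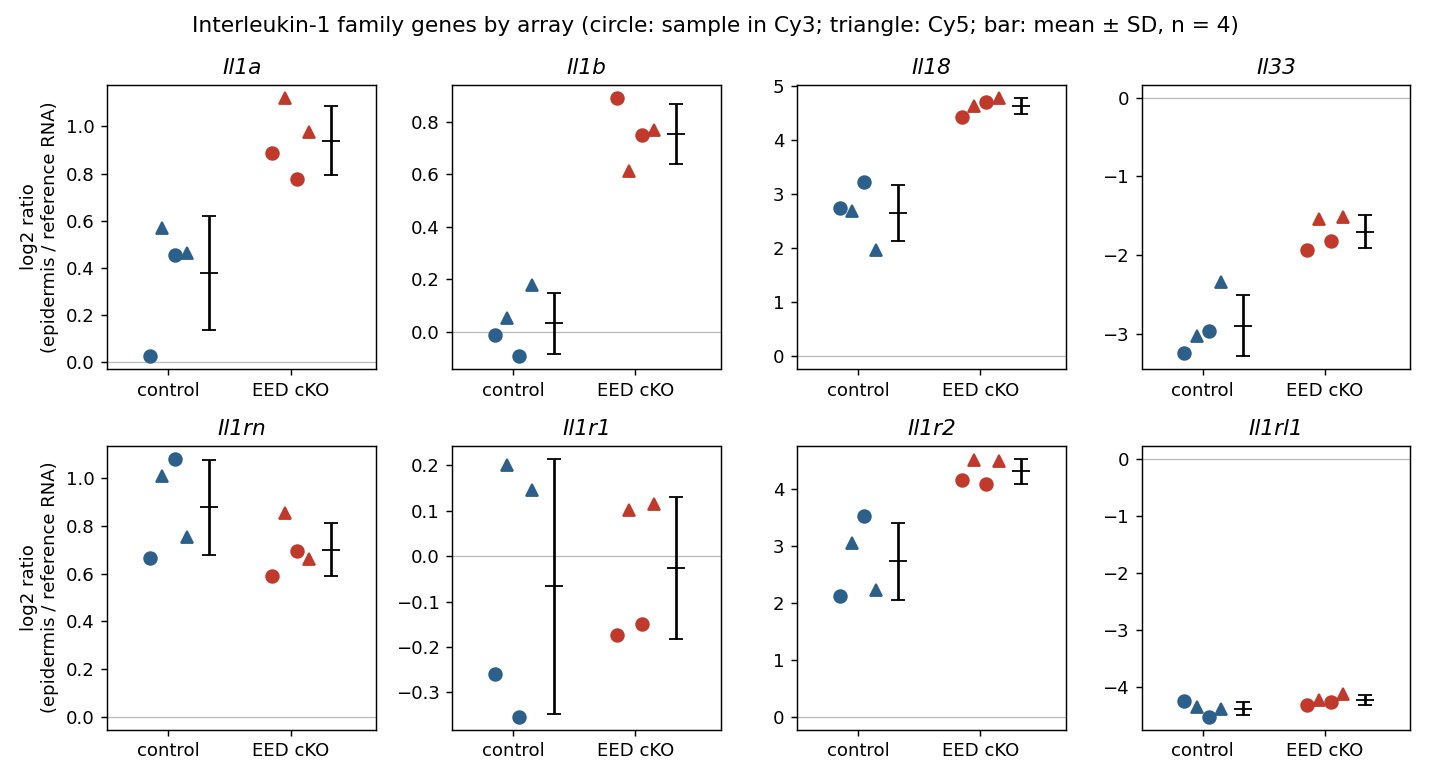
Log2 ratio of epidermis over reference RNA for each of the 8 genes on each array, with its own vertical scale per gene; circles are samples labelled with Cy3 and triangles samples labelled with Cy5, and bars give the mean ± SD of the 4 arrays of a group. The groups are apart for Il1a, Il1b, Il18, Il33 and Il1r2 and overlap for Il1rn, Il1r1 and Il1rl1.

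PRC2 is known for its link to promoters rich in CpG dinucleotides. The promoter windows of the 3 genes that rose at least 2-fold are therefore printed with each CpG in capitals (RefSeq, GRCm38.p6, 250 bases before to 50 after an annotated start, each on the strand of the gene). All 3 genes lie on the plus strand, at chr9:50554450-50554749 for Il18, at chr1:40085843-40086142 for Il1r2, and at chr19:29924863-29925162 and chr19:29945540-29945839 for the 2 annotated starts of Il33.
Il18: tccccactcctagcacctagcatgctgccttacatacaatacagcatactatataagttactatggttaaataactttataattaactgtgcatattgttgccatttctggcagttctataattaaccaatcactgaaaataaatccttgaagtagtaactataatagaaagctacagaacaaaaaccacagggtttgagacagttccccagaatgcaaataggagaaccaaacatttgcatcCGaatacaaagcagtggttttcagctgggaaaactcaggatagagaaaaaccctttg
Il1r2: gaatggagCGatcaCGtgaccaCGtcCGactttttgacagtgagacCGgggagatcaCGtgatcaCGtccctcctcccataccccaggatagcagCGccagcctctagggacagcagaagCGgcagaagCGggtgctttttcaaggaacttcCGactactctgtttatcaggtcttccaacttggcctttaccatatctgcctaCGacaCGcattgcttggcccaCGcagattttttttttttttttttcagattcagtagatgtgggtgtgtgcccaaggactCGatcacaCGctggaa
Il33, first start: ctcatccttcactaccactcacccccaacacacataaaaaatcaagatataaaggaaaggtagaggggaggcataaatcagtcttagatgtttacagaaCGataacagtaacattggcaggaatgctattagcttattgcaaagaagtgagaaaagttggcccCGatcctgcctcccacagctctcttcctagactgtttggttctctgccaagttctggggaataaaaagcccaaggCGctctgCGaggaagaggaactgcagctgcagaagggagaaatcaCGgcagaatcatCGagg
Il33, second start: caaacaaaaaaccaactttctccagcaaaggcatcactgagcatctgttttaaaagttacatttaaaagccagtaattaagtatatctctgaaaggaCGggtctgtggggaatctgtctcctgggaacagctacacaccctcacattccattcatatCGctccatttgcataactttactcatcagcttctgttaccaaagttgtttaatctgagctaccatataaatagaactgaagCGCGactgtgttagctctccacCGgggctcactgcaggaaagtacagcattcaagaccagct

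The Il18 window held 1 CpG and the Il1r2 window 16, no window of the 8 genes held fewer or more, and the Il33 windows held 6 and 5. The median over 32817 windows of the annotation was 7, with 1 or fewer in 14.1% of windows and 16 or fewer in 68.6%. Of the genes that did not pass the test, Il1r1 had windows with 5 and 14, Il1rn with 1, 5 and 4, and Il1rl1 with 1 and 3.

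AP-1, the transcription factor of the stress response, binds TGANTCA. The Il1a window (chr2:129309923-129310222, minus strand) held it once, beginning 12 bases before the start, and is shown with the match in capitals.
Il1a: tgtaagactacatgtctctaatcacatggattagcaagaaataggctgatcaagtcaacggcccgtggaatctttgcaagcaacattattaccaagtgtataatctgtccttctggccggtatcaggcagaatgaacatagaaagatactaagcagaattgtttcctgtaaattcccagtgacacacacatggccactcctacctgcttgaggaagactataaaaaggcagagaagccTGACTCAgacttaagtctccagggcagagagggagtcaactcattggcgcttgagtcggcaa
One Il1rn window held a match as well, beginning 141 bases before its start, and no other window of the 8 genes did. On both strands this motif was found in 7.81% of all windows. The consensus of NF-kappaB, the main factor downstream of the interleukin-1 receptor, was found in 4.5% of all windows and among the 8 genes in 1 window of Il1r1. Chromatin at these windows was not measured on these arrays.

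Among the ligands, Il18 had the largest log2 fold change of the 8 genes on the normalized scale, though not with ratios of processed signals, where Il1a differed by 2.22 (without passing the test) and Il18 by 2.04. Its log2 ratio was 4.44, 4.63, 4.72 and 4.78 on the EED cKO arrays and 2.75, 2.69, 3.22 and 1.97 on the control arrays. The EED cKO arrays lay close together, while control replicate 3 was highest and control replicate 4 lowest among the controls. EED cKO epidermis averaged 4.64 ± 0.15 (SD, n = 4) and control epidermis 2.66 ± 0.52 (SD, n = 4), a 3.96-fold difference (log2 1.98, SE 0.20, adjusted p = 0.000435). Within the Cy3 arrays the log2 difference was 1.59 and within the Cy5 arrays 2.37. The processed signal of the epidermis channel was 20350 to 24389 in EED cKO and 2890 to 6331 in control samples. The reference channel of the same spot, which held the same RNA on every array, was at 609 to 768 and 493 to 677, and these ranges overlapped.

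Il33, an alarmin kept in the nucleus and released on cell damage, was less abundant in epidermis than in the reference mix on all 8 arrays. Its log2 ratio was -1.94, -1.54, -1.82 and -1.51 in EED cKO and -3.25, -3.03, -2.97 and -2.35 in control epidermis. Control replicate 4 came nearest to the EED cKO arrays without reaching them. The rise was 2.29-fold (log2 1.20, SE 0.14, adjusted p = 0.000726). It was nearly the same with either dye, at 1.23 for Cy3 and 1.16 for Cy5. The reference channel varied little, from 2471 to 2722 on the EED cKO arrays and from 2332 to 2555 on the control arrays, whereas the epidermis channel went from 72.5 to 369 in control to 512 to 823 in EED cKO samples.

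Il1b was spotted 10 times on each array, so its value averages more measurements than any other member's. Its log2 ratio was 0.89, 0.61, 0.75 and 0.77 in EED cKO and -0.01, 0.05, -0.09 and 0.18 in control epidermis. The gap between the groups exceeded the spread within each. The rise was 1.65-fold (log2 0.72, SE 0.09, adjusted p = 0.00101). The epidermis channel gave signals of 204 to 306 in EED cKO and 46.8 to 89.0 in control samples. These are dim signals, and the background correction used here draws the ratios of dim spots toward 0. The reference channel was slightly higher on the EED cKO arrays too, at 72.8 to 77.1 against 63.1 to 67.0.

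Il1a was dim too, with processed signals of 110.0 to 273 in EED cKO and 5.87 to 71.9 in control samples. Its log2 ratio was 0.89, 1.12, 0.77 and 0.98 in EED cKO and 0.03, 0.57, 0.46 and 0.46 in control epidermis. Control replicate 1 was the lowest and was not well above background, so 3 of 4 control arrays measured the gene. The rise was 1.48-fold (log2 0.56, SE 0.10, adjusted p = 0.00472). The reference channel was well above background on 1 of 8 arrays, so the denominator of this ratio was hardly measured. From the ratios of processed signals the log2 difference was 2.22, with 0.00 in control replicate 1 and 1.60 in control replicate 3, and it did not pass the test (adjusted p = 0.0598).

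The antagonist Il1rn was dim as well. Its log2 ratio was 0.59, 0.85, 0.70 and 0.66 in EED cKO and 0.67, 1.01, 1.08 and 0.76 in control epidermis. The groups overlapped, and the log2 fold change of -0.18 did not pass the test (95% interval -0.42 to 0.06, adjusted p = 0.263). The ratios of Il1rn against those of Il1a and Il1b were not tested.

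Of the receptors, Il1r2 was the only one of the 3 with an adjusted p below 0.05, and its rise depended on how the ratio was formed. The log2 ratio was 4.16, 4.52, 4.10 and 4.50 in EED cKO and 2.13, 3.05, 3.54 and 2.23 in control epidermis. Control replicates 2 and 3, the pair with Y-linked RNA, were the highest controls, and with Y-linked RNA as a covariate the log2 fold change was 2.10. As measured, the rise was 3.00-fold (log2 1.59, SE 0.29, adjusted p = 0.00538). In the epidermis channel the processed signal was 3540, 5324, 3156 and 5230 in EED cKO and 569, 1196, 1967 and 601 in control samples, with no overlap. In the reference channel, whose RNA was the same on all arrays, the signal was 49.9, 73.0, 53.5 and 67.8 on the EED cKO arrays and 11.8, 14.7, 32.4 and 12.3 on the control arrays. The dim reference signal of this probe was thus high where the epidermis signal was high, and was well above background on 4 EED cKO arrays and on 1 control array.

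The log2 ratio of these processed signals for Il1r2 was 6.15, 6.19, 5.88 and 6.27 in EED cKO and 5.59, 6.35, 5.93 and 5.61 in control epidermis. On that scale the groups overlapped and the log2 difference was 0.25 (SE 0.17, adjusted p = 0.339). From the normalized epidermis channel alone it was 1.86 (SE 0.31, adjusted p = 0.0053), an analysis added after these signals were seen, and from the normalized reference channel alone 0.28 (SE 0.06, adjusted p = 0.15). The EED cKO arrays were above all control arrays in both channels. Why the reference signal of this probe moved with genotype was not tested.

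**Figure D2:**
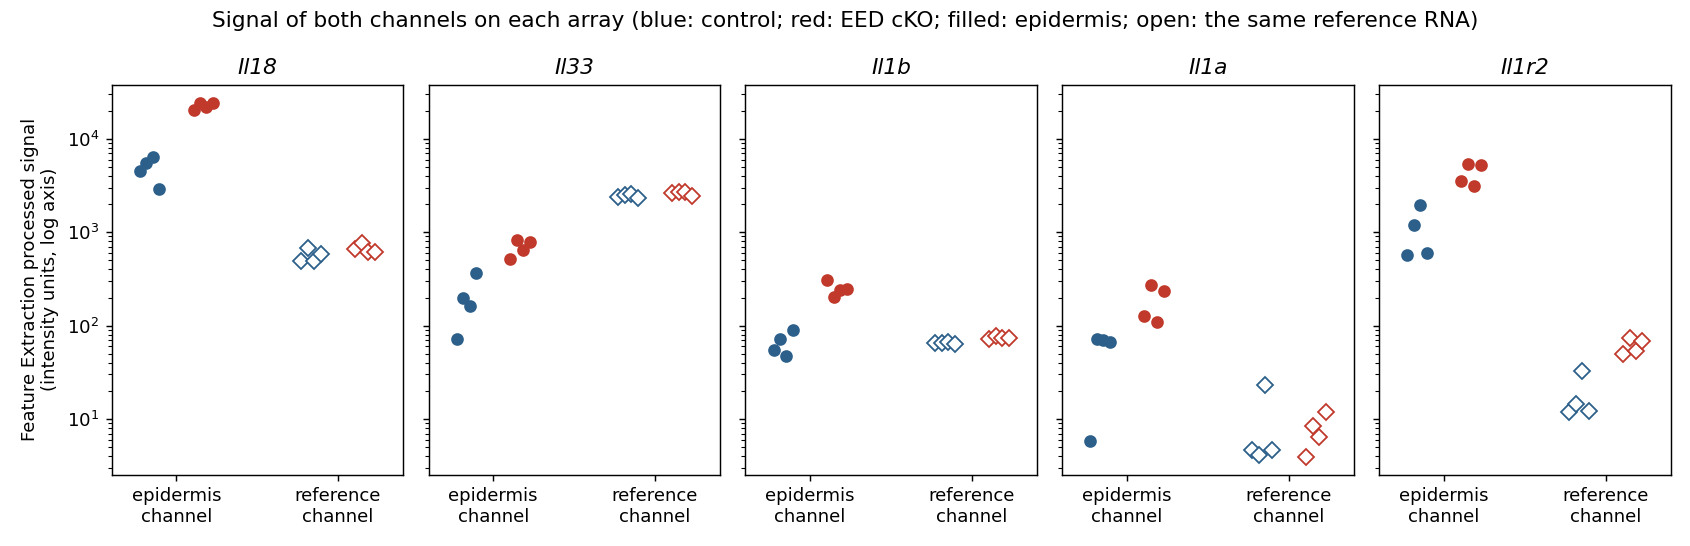
Processed signal (intensity units, log axis) of the epidermis channel (filled circles) and of the reference channel (open diamonds) for the 5 genes that rose, with control arrays in blue and EED cKO arrays in red. The epidermis signals are apart for all 5 genes. The reference signals overlap between genotypes for Il18, Il33 and Il1a, are narrowly apart for Il1b (63.1 to 67.0 on control arrays, 72.8 to 77.1 on EED cKO arrays) and are widely apart for Il1r2 (11.8 to 32.4 and 49.9 to 73.0).

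The signaling receptor Il1r1 had a log2 ratio of -0.17, 0.10, -0.15 and 0.12 in EED cKO and -0.26, 0.20, -0.35 and 0.15 in control epidermis. In both genotypes the Cy5 arrays were higher than the Cy3 arrays, and the genotypes overlapped. The log2 fold change was 0.04 (95% interval -0.12 to 0.20, adjusted p = 0.735), and its sign turned with median centring of the arrays (-0.14).

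The interleukin-33 receptor Il1rl1 was much less abundant in epidermis than in the reference, with log2 ratios of -4.33, -4.24, -4.27 and -4.12 in EED cKO and -4.25, -4.37, -4.53 and -4.40 in control epidermis. The groups overlapped, and the log2 fold change was 0.15 (95% interval -0.03 to 0.32, adjusted p = 0.226). A probe for another transcript of the gene gave 0.26 (SE 0.10, adjusted p = 0.156 over all probes), and its groups overlapped as well. The third probe was not well above background in the epidermis channel on any array.

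Compared singly by a two-sided exact permutation of the 8 arrays, each of the 5 genes that rose gave p = 0.0286, the smallest value that this design allows. Their groups were fully apart, which fixes this value, so it adds nothing to that separation. Groups fully apart were found with EED cKO above in 9.67% of all targets and below in 7.51%, and these get the same p. The permutation p values were 0.0857 for Il1rl1, 0.2 for Il1rn and 0.771 for Il1r1.

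**Figure D3:**
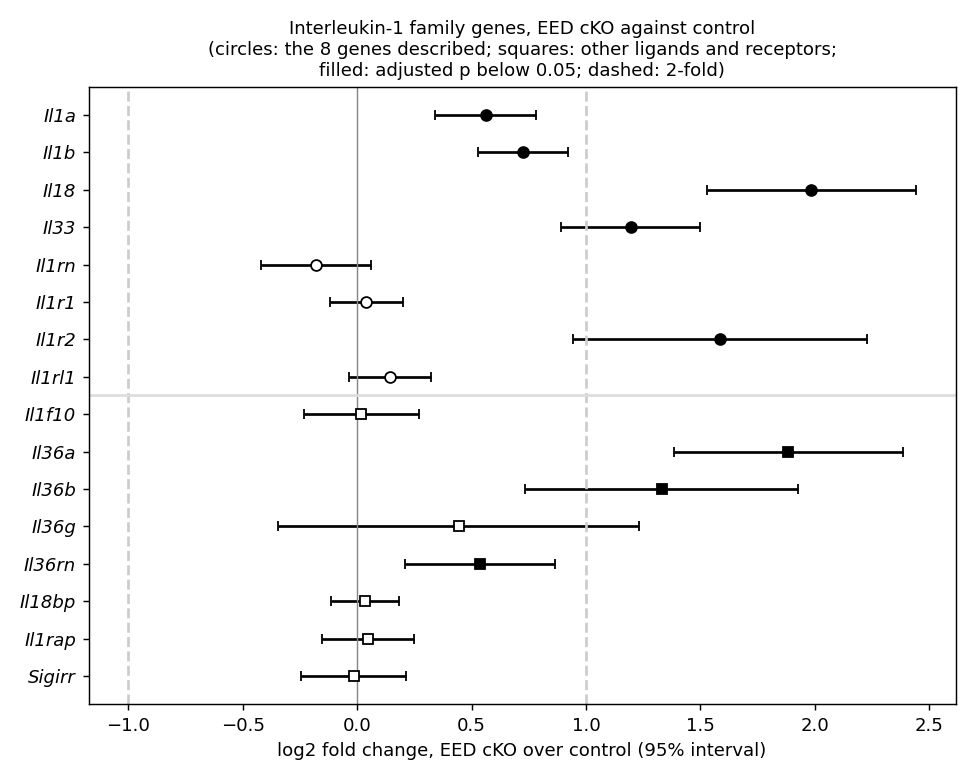
Log2 fold change of EED cKO over control epidermis with its 95% interval for the 8 genes (circles) and for the other ligands, receptors and binding proteins of the family that were tested (squares); filled symbols have an adjusted p below 0.05 and dashed lines mark 2-fold. Il18, Il1r2, Il33, Il36a and Il36b lie beyond 2-fold.

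On the chromosomes the family is clustered. Il1r2, Il1r1, Il1rl2, Il1rl1, Il18r1 and Il18rap are neighbours on chromosome 1, and of these only Il1r2 passed the test, while Il1rl2, Il18r1 and Il18rap were too dim to be tested. Il1a and Il1b are neighbours on chromosome 2, and both rose. Elsewhere on that chromosome the interleukin-36 genes Il36b, Il36g, Il36a and Il36rn lie in a row with Il1f10 and Il1rn. Il18 is on chromosome 9 and Il33 on chromosome 19.

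The other genes of the pathway came from 5 lists with 82 genes, of which 65 were tested. Of these, 12 rose and 12 fell at an adjusted p below 0.05, which is 24 of 65 against 21.7% of all targets in either direction. Among the 14942 targets with a symbol, as all listed genes have, 3859 passed. Without control replicate 2 the pathway count was 14 of 65, and over all targets 2722 of 23135 passed in place of 5026. Under other settings the count was as low as 7. The median log2 fold change over the 65 was 0.03, and 2 passed the 2-fold limit, both of them ligands.

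Of the 5 other ligands, 3 rose, where 11.8% of all targets did. The 3 were Il36a (named Il1f6 in the RefSeq annotation used), Il36b (Il1f8) and the interleukin-36 receptor antagonist Il36rn (Il1f5). Il36a, an agonist of the interleukin-36 receptor made by keratinocytes, had log2 ratios of 5.19, 5.71, 5.53 and 5.95 in EED cKO and 3.72, 4.07, 3.97 and 3.08 in control epidermis, a 3.69-fold rise (log2 1.88, SE 0.22, adjusted p = 0.000904). Il36b, another agonist, rose 2.52-fold (log2 1.33, SE 0.27). The antagonist Il36rn rose by 0.54 on the log2 scale (SE 0.15, adjusted p = 0.0288) with overlapping groups, and its call held under 13 of 25 other settings. For Il36g (Il1f9) the log2 fold change was 0.45 (SE 0.35, adjusted p = 0.402), and for Il1f10 0.02.

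For Il36a and Il36b, as for Il1r2, the reference signals of the genotypes were apart, while those of Il36rn (49.2 to 110 in EED cKO, 30.2 to 116 in control arrays) and Il36g (4.57 to 18.0 and 3.76 to 12.5) overlapped. The processed signal of Il36a in the epidermis channel was 14604 to 20038 in EED cKO and 880 to 2318 in control samples, and in the reference channel 121 to 249 and 4.14 to 40.7. Il36b had 3205 to 5625 and 387 to 1757 in the epidermis channel, and 93.3 to 182 and 16.6 to 57.2 in the reference channel. From the ratio of processed signals the log2 difference was -0.30 for Il36a (adjusted p = 0.412) and 0.31 for Il36b (adjusted p = 0.25), so the first turned and both lost the call. From the epidermis channel alone it was 3.11 for Il36a (adjusted p = 9.87e-05) and 1.81 for Il36b (adjusted p = 0.00715). Its cause was not tested.

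No receptor or binding protein outside the 8 genes passed the test. Of 8 listed, 3 were tested, with log2 fold changes of 0.05 for the shared co-receptor Il1rap, 0.03 for the interleukin-18 binding protein Il18bp and -0.02 for the inhibitory receptor Sigirr. The interleukin-18 receptor gene Il18r1 was well above background on no array, and Il1rl2, the interleukin-36 receptor, on 4 of 8.

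All 25 genes of receptor signaling were tested, and 9 fell while 1 rose, where 9.94% of all targets fell and 11.8% rose. Of the 14942 targets with a symbol, 2000 fell. The median log2 fold change was -0.20. The NF-kappaB subunits Nfkb1 (-0.65, SE 0.09, adjusted p = 0.00161), Rela (-0.52) and Relb (-0.42) fell, as did the kinase adaptors Tab3 (-0.61) and Tab1 (-0.38), the kinases Irak1 (-0.32) and Chuk (-0.29), the NF-kappaB inhibitor Nfkbia (-0.33) and Tollip (-0.36). Irak3, an inhibitor of the pathway, rose by 0.45 (SE 0.07, adjusted p = 0.00314). The adaptor Myd88 had an adjusted p of 0.732. Of these 10 calls, those of Nfkb1, Tab1, Tab3 and Irak3 held under all 25 other settings. Those of Relb, Rela and Nfkbia held under 23, 21 and 19, and those of Irak1, Chuk and Tollip under 13. Without control replicate 2, Rela (adjusted p = 0.066), Nfkbia (0.062), Irak1 (0.119), Chuk (0.092) and Tollip (0.105) did not pass.

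Of 18 tested genes for processing and release, 4 rose and 1 fell, a share near that of all targets (21.7% in either direction). Casp1, the protease that matures interleukin-1 beta and interleukin-18, rose by 0.57 on the log2 scale (SE 0.14, adjusted p = 0.0171), with log2 ratios of -0.84, -0.61, -0.54 and -0.72 in EED cKO and -1.19, -1.44, -0.79 and -1.58 in control epidermis. Control replicate 3 reached the EED cKO range. The gasdermins Gsdma2 (0.89) and Gsdmc (0.49) and the calpain Capn2 (0.29) also rose, and the inflammasome sensor Nlrp1a fell by 0.48. The calls of Capn2 and Nlrp1a held under 10 and 11 of 25 other settings. For Nlrp3 and Pycard, the sensor and adaptor of the best known inflammasome, the adjusted p values were 0.585 and 0.0886.

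Of the 23 genes listed as induced by interleukin-1 signaling, 14 were tested, 4 rose and 2 fell. Over all targets, 11.8% rose and 9.94% fell. The neutrophil chemokine gene Cxcl1 rose 1.90-fold (log2 0.93, SE 0.09, adjusted p = 0.000276), from -3.93, -4.02, -4.04 and -3.99 in control to -2.86, -3.33, -2.91 and -3.17 in EED cKO epidermis. Ptgs2, which encodes cyclooxygenase-2, rose by 0.69 and Nfkbiz and Cxcl2 by 0.42 and 0.35 on the log2 scale. Ptgs2 and Cxcl2 were each well above background on 4 EED cKO but 2 control arrays. Both passed the filter only through the genotype in which they rose. Icam1 fell by 0.37 and Birc3 by 0.29, with calls that held under 19 and 17 of 25 other settings. Il6, Ccl20, Csf2 and Csf3 were well above background on no array.

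**Figure D4:**
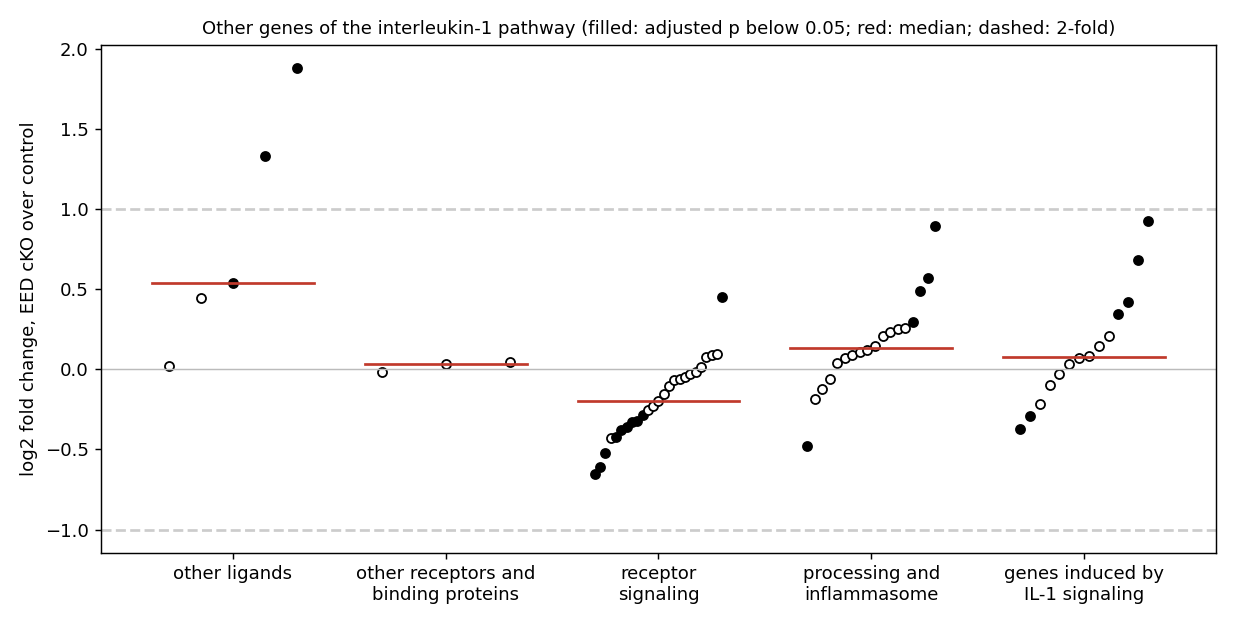
Log2 fold change of EED cKO over control epidermis for each tested gene of the 5 pathway lists, 1 point a gene; filled points have an adjusted p below 0.05, red lines are the medians of the lists and dashed lines mark 2-fold. Receptor signaling has its median at -0.20 with 9 genes that fell, and the 2 genes above 2-fold are Il36a and Il36b.

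Genes whose log2 ratios ran most like those of a member over the 8 arrays, after removal of the dye, were listed for 4 of the 5 genes that rose. Il1a was left out because 1 array did not measure it. For Il1b they were Cxcl1 (r = 0.994), Matk (0.992) and Stmn3 (0.991). For Il18 they were Hcrtr1 (r = 0.997), Rnf11 (0.996) and Il36a (0.996). For Il33 they were Cib2 (r = 0.993), Nkx6-1 (0.991) and Tpm2 (0.991), and for Il1r2 Dusp13, Tmprss11e and Otub2 (each r = 0.994). The genotype difference is part of these correlations, and the 8 arrays share the slide and the reference. They used normalized ratios. With processed signals the log2 genotype difference was 0.25 for Il1r2 and -0.30 for Il36a, and neither passed the test. The likenesses that involve these 2 genes therefore hold for the normalized ratios only.

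Markers of other cells that make or answer these cytokines were read beside the members. Over all targets, 11.8% rose and 9.94% fell, the shares to set beside the counts of each marker list. Of 8 tested markers of Langerhans cells and macrophages, 2 rose, H2-Ab1 (log2 1.55, adjusted p = 0.00933) and Cd74 (0.46, adjusted p = 0.0439), whose call held under 9 of 25 other settings, and Cd207, the defining Langerhans cell gene, was well above background on 1 array. The summed epidermis signal of the list was 19529 to 21043 in EED cKO and 11422 to 19287 in control samples. H2-Ab1 was highest among the controls on replicate 4 (2.45), the control with the highest Il33 and the lowest Il18. That is 1 array, on which the 2 members went opposite ways, and a link was not tested. Of the 5 endothelial markers, Pecam1 (0.89) and Kdr (0.62) were tested and rose, the sum was 12368 to 16775 against 6533 to 10029, and Cdh5 and Tek were well above background on no array. The 6 Merkel cell markers rose, with a sum of 4728 to 6976 against 2231 to 3832. Of these, Sox2 clearly exceeded background in 4 EED cKO and 0 control samples, and Isl1 and Atoh1 each in 4 and 2. Only the EED cKO arrays brought Sox2, Isl1 and Atoh1 past the filter, so for them the filter itself favoured a rise. Krt8, Krt18 and Krt20 clearly exceeded background on all 8 arrays.

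Of 7 tested lymphoid markers Cd3e rose (0.54) and Gata3 fell by 0.52, the latter a call that held under 17 of 25 other settings. The log2 fold changes of Cd3d (-0.25) and Cd3g (0.05) did not pass the test. The sums of the list were 20991 to 27137 and 25111 to 33140. In bulk RNA the cells that gave the Gata3 signal, or these sums, cannot be told. Of 2 tested neutrophil markers Camp rose (0.29), with sums of 170.1 to 266 and 144 to 195, and Ngp, Retnlg and Cxcr2 were well above background on no array. Of 6 fibroblast markers Lum rose (0.50), with sums of 86809 to 101409 and 80141 to 121597. Of the mast cell markers Tpsb2 alone was tested (0.13, adjusted p = 0.257), with sums of 357 to 645 and 279 to 373, and Cpa3, Cma1, Ms4a2 and Fcer1a were well above background on no array. The part of these cells in the values of the 8 genes was not tested.

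Across 25 other settings of the processing, the 5 genes that rose kept that direction. Il18, Il33 and Il1b passed the test under all of them, and Il18 and Il33 also kept at least a 2-fold rise. The settings are not 25 separate checks. Aquantile normalization repeated the reported values, and the filter and probe rules left the log2 fold changes of the members unchanged. The deposited table nearly repeated the ratios of processed signals. For Il1a and Il1r2 the adjusted p was above 0.05 under 3 settings each. Ratios of the processed signals, with no offset, gave larger log2 differences than the normalized ratios for Il33 (1.89) and Il1b (1.77), and a like one for Il18 (2.04).

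**Figure D5:**
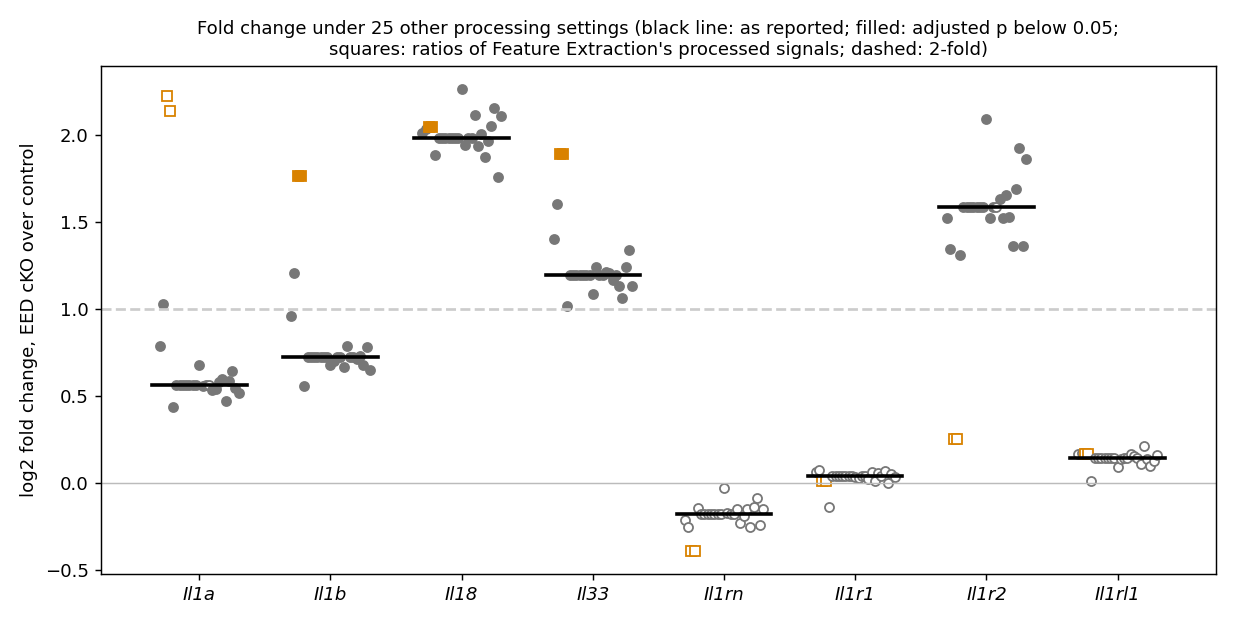
Log2 fold change of the 8 genes under each of the 25 other settings (points and squares) and as reported (black lines); filled symbols have an adjusted p below 0.05, orange squares are ratios of processed signals, and the dashed line marks 2-fold. Il18 and Il33 stay above 2-fold throughout, and the squares of Il1r2 lie at 0.25.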

How the data were processed

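RNA of newborn epidermis from 4 EED cKO and 4 control mice was read on 8 two-color Agilent arrays against one reference RNA, and group, replicate and dye were taken from the labels. The authors labeled 100 ng of total RNA per sample, hybridized 300 ng of cRNA and deposited, per array, the intensity of each spot, its background and flags from Agilent Feature Extraction 12.0.1.1 (per the submitters' processing notes), with a log10 ratio of Cy5 over Cy3, and a table of log2 ratios. The deposited log2 values equal sample over reference of the processed signals, without centring (medians 0.03 to 0.14), and the values of both deposited ratios served as alternatives.

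Here the median spot intensity was corrected by normexp (offset 50), each array was normalized by loess with control and flagged spots at weight 0, ratios were turned to sample over reference and spots were averaged. Names came from RefSeq accessions (GRCm38.p6), which matched 28026 of 55681 probes. A target was kept if its sample signal exceeded background clearly (the software's flag) in 3 or more of the 4 arrays of either genotype. The 23135 targets left, with 19 missing values filled with the group mean, were fitted in R 4.3.3 with limma 3.58.1 (genotype plus dye) and Benjamini-Hochberg adjustment, and the fit was tested on simulated data. The number of arrays limits the precision.

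The members and lists were chosen with earlier results of these data known. Named are Eed, the 8 members, the called genes of each list, at least the 2-fold ones and the 3 largest others, and the 3 genes most like a member. Genes named beyond that, and the interleukin-36 signals by channel, were chosen after their values were seen. Same-numbered arrays deviated together, with correlations across genes of 0.49, 0.68, 0.33 and 0.36 for replicates 1 to 4. Without the dye they were 0.13 for replicates 1 and 3 and 0.46 for replicates 2 and 4. The number also marks slide column and dye, so whether the samples were paired cannot be told. The other settings were no background correction, offset 10, processed ratios, the deposited table, median centring, Aquantile, other filters and probe rules, a fit without dye, one with a replicate block, Y-linked RNA as a covariate, weighted arrays, a trend with intensity, the methods' t-test, each array left out, and the sample channel alone.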

Additional observations from a re-analysis of the deposited data

Results flagged for a closer look

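Among the genes named with values, 1 array stood apart from the other 3 of its group. Nlrp1a had a log2 ratio of -1.37 on EED cKO replicate 2, against -1.79 to -1.86 on the 3 others. Of 92 groups of 4 arrays examined, chance would single out about 1 in 20.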

How the results depend on the processing

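Il18, Il33 and Il1b kept their direction and an adjusted p below 0.05 under all 25 other settings, and Eed stayed lower in EED cKO (log2 fold change -1.72 to -1.39). Some of these settings repeat the reported ratios or each other, so they are not all separate checks. The number of members past the test was 5 in 22 settings and 3 with the Feature Extraction log ratio, the series table and the methods' t-test after Benjamini-Hochberg adjustment, where Il1a (adjusted p = 0.0598, 0.0535 and 0.0834) and Il1r2 (0.339, 0.339 and 0.0668) no longer passed. At the thresholds of the methods, p below 0.05 and at least 2-fold, their t-test called 3 members before adjustment and 2 after it, and 275 and 175 of all targets. With offset 10, 5 members were past 2-fold. With either processed ratio there were 3, with Il1b in place of Il1r2. Il1r1, which did not pass in any setting, changed sign with median centring (-0.14) and without control replicate 3, and ranged from -0.00024 to 0.072 when an array was left out. The number of pathway genes past the test, 24 as reported, was 11 with median centring, 12 without the dye term, 15 with Y-linked RNA as a covariate, 7 by the methods' t-test, and 14 to 22 when an array was left out, the lowest without control replicate 2. Those past 2-fold, 2 as reported, numbered 4 without background correction, 5 with offset 10, 6 with either processed ratio and 1 by the methods' t-test. The replicate block kept 5 members past the test and 3 past 2-fold. Over all targets, 5026 passed the test as reported, 2555 with median centring, 2358 without the dye term, 2807 with the covariate and 912 by the methods' t-test. Past 2-fold there were 278 as reported and 499 with offset 10 or 698 with the Feature Extraction log ratio. The causes were not tested. Dim signals limit Il1a, Il1b, Il1rn and the reference channel of Il1r2.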
